A study of Mus musculus with 16 samples.

Results

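The effect of olanzapine was measured in the hypothalamus of mice that all drank minocycline. RNA from OLZ+MINO mice was compared with RNA from MINO mice, which makes 8 of the 16 libraries of the study. The libraries were chosen by their labels, and all 15792 genes listed for both groups were tested. Both groups were C57BL/6 female mice. From 10 weeks of age they spent 12 weeks on a diet in which fat gave 45% of the kcal, and they drank water with minocycline at 0.6 mg/ml. The OLZ+MINO diet also held olanzapine at 54 mg/kg of diet. The OLZ+MINO libraries came from mice 37, 40, 47 and 48, and the MINO libraries from mice 26, 31, 35 and 36, and values below are given in those orders. The other groups, OLZ and CTRL, received the same diet with and without olanzapine and no minocycline, with 4 mice each. Each library came from dissected hypothalamus, so fewer cells of a type and less RNA per cell cannot be told apart.

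Olanzapine is an antipsychotic that blocks dopamine D2, serotonin 2A and 2C, histamine H1 and muscarinic receptors, and it is known for causing weight gain. The arcuate nucleus of the hypothalamus holds neurons that make Npy and Agrp, which promote feeding, and neurons that make Pomc, which restrain it. Tanycytes are glia of the ventricle wall next to those neurons. Minocycline is a tetracycline antibiotic that is also studied for its effect on microglia.

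No gene passed the test between OLZ+MINO and MINO. In the limma fit, 0 of 15792 genes passed an adjusted p of 0.3 or of 0.05 (0% at either), and the smallest adjusted p was 0.701. The study also used a cutoff of 0.3, on a false discovery rate that its methods describe as local. That is a different measure from the Benjamini-Hochberg adjusted p used here. At an unadjusted p under 0.05 there were 1038 genes (6.57%), of which 482 (3.05%) were higher and 556 (3.52%) lower in OLZ+MINO. With 1 library left out the 1038 became between 622, without MINO mouse 35, and 1461, without OLZ+MINO mouse 37. It was 451 without MINO mice 31 and 35. The groups did not overlap for 636 genes (4.03%), 312 of them with higher values in OLZ+MINO (1.98%) and 324 with lower values (2.05%). These are the background for every count below. The median log2 fold change was 0.00 and the median absolute log2 fold change 0.13. The 95% interval of the log2 fold change lay between -1 and 1 for 13003 genes (82.3%), and for 94.9% of the 12187 genes with a mean of at least 50. The median half-width of that interval was 0.33 on the log2 scale.

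The deposited values are whole numbers, called scaled counts here because the CTRL libraries held by both tables differ between them by a near-constant ratio, while how they were scaled is not stated. They summed to between 8855060 and 9279227 in OLZ+MINO and between 8849189 and 9447616 in MINO. Several libraries stood apart in their markers. The mean log2 level of 15 tanycyte genes ran from 5.81 to 6.52 in OLZ+MINO and from 6.55 to 7.62 in MINO, with MINO mice 31 and 35 highest. The mean of 11 thalamus genes ran from 5.99 to 6.39 in MINO and from 6.55 to 9.67 in OLZ+MINO, with mouse 48 highest. CTRL, which enters the 16-library fit, reached 8.27. MINO mouse 26 had the highest share of snRNA and snoRNA genes. Hypothalamic neuropeptide genes such as Pmch were present in all 8 libraries, from 415 in OLZ+MINO mouse 48 to 4230 in OLZ+MINO mouse 37. Of the 57 genes fitted for this text, 26 moved by over 1.5 times or changed sign without MINO mice 31 and 35, and 12 without OLZ+MINO mouse 48. Those values stand beside the genes named below.

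**Figure D1:**
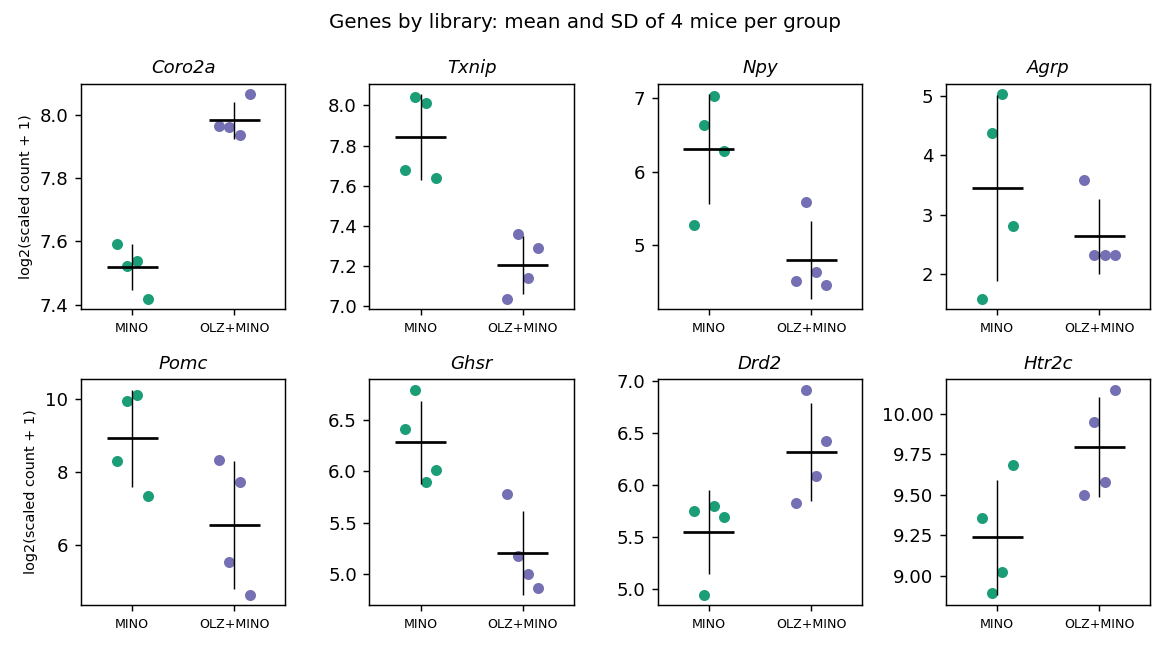
log2(scaled count + 1) of 8 genes in each MINO and OLZ+MINO library. Points are single mice, horizontal lines the mean and vertical lines the SD of 4 mice. Coro2a, Txnip, Ghsr and Drd2 did not overlap between the groups, while Npy, Agrp, Pomc and Htr2c did.

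The 10 genes with the smallest p were a mixed set. Coro2a encodes a coronin, a family of actin-binding proteins. Its scaled counts were 249, 248, 244 and 267 in OLZ+MINO and 192, 183, 185 and 170.1 in MINO. Every OLZ+MINO library was above every MINO library, with a log2 fold change of 0.46 (SE 0.09, limma adjusted p = 0.701). Txnip encodes a thioredoxin-binding protein whose expression follows glucose in many cells. It had 130, 163, 140 and 155 in OLZ+MINO and 204, 263, 258 and 198 in MINO. All 4 OLZ+MINO libraries were lower, by a log2 fold change of -0.64 (SE 0.13, adjusted p = 0.701). Zfp784, a zinc finger gene, had 60, 41, 35 and 42 against 14.9, 19.9, 22.9 and 15.9, a log2 fold change of 1.22 (SE 0.27). Lrrc9, a leucine-rich repeat gene, had 86, 109, 127 and 84 against 167, 175, 157 and 154 (-0.70, SE 0.15). Neither gene overlapped between the groups. The remaining 6 were the pseudogenes Gm6863 (-0.83, SE 0.14) and Gm13826 (-0.59, SE 0.13), the antisense gene Gm26947 (0.51, SE 0.11), and the small RNA genes Gm22988, Gm24407 and Snora73a. Pseudogenes can share reads with their parent genes, so their values are uncertain. Gna11 and Etv5, singled out after their values were seen, followed closely. Gna11, a G protein alpha subunit, had 592, 600, 657 and 626 against 761, 804, 828 and 717 (-0.33, SE 0.07). Etv5, an ETS transcription factor, had 351, 365, 342 and 356 against 269.5, 251, 284 and 289 (0.37, SE 0.08). The exact two-sided permutation test gave p = 0.0286 for each of these 12 genes, the smallest it can give with 4 against 4. Any gene without overlap gets this p, and the 12 were picked on the same libraries, so it is no further evidence.

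The spliceosomal U1 and U2 RNAs and most other snRNA and snoRNA genes were lower in OLZ+MINO than in MINO, a pattern singled out after the values were seen and not past the test. U1 and U2 are parts of the spliceosome. The annotation holds several gene copies of each with the same sequence, so the rows of a set carry 1 measurement. For U1, 7 genes had identical values in every library and 1 transcript sequence, and for U2 this held for 4 genes. They are shown here because the shared sequence is what makes those rows inseparable. U1 is represented by Rnu1a1 (GRCm38, chr11:87422867-87423030, plus strand, 164 bases), with the bases that pair with the 5′ splice site, positions 3 to 11, in capitals. U2 is represented by Rnu2-10 (GRCm38, chr11:101658238-101658428, plus strand, 191 bases), with the branch site pairing bases, positions 33 to 38, in capitals. Both are transcript sequences of GENCODE vM21, which writes T for U.
Rnu1a1: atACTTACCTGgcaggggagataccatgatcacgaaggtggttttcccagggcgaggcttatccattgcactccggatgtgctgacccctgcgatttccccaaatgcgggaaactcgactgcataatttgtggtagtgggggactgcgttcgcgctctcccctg
Rnu2-10: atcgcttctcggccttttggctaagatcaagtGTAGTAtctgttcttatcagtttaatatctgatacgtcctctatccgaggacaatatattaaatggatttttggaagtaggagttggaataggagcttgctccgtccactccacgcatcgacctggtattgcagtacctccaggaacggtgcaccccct

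The U1 set had scaled counts of 28, 31, 50 and 59 in OLZ+MINO and 276, 84.5, 101 and 96.5 in MINO. Every OLZ+MINO library was below every MINO library, and mouse 26 was far above the rest. The log2 fold change was -1.59 (SE 0.37, limma adjusted p = 0.701). The U2 set had 249, 202, 234 and 289 against 1332, 413, 547 and 466, again without overlap and with mouse 26 highest (-1.34, SE 0.30). Rny3, a Y RNA that binds the Ro protein, had 17, 15, 10 and 19 against 223, 60.7, 34.8 and 43.8 (-2.11, SE 0.50). Rn7sk, the 7SK RNA that holds back the elongation factor P-TEFb, had 48133, 40254, 49010 and 56570 against 87868, 56549, 83232 and 75754, and its groups overlapped by a narrow margin (-0.64, SE 0.15). The snRNA genes together took 0.0166% to 0.0249% of the scaled counts in OLZ+MINO and 0.0406% to 0.147% in MINO. In CTRL and OLZ the range was 0.0158% to 0.0772%, which holds all OLZ+MINO libraries and every MINO library except mouse 26. Of 20 snRNA genes 17 were lower without overlap, and of 12 snoRNA genes 5, although identical copies are counted separately here. All 7 scaRNA genes were also below 0, with a median of -0.52, 4 at an unadjusted p under 0.05 and 2 without overlap. The misc_RNA and miRNA classes were mixed: 15 of 28 misc_RNA genes and 26 of 37 miRNA genes were above 0, with medians of 0.03 and 0.07. Over the 67 genes of 4 small RNA classes there were 55 distinct sets of values, of which 16 were lower and 1 higher without overlap. Without MINO mouse 26, 12 of 15792 genes passed an adjusted p of 0.3 in limma, all lower in OLZ+MINO. Of these 10 were small RNA genes, the U2 set and Snora73a among them, again with identical copies counted separately. The others were Npy and Hbb-bs.

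**Figure D2:**
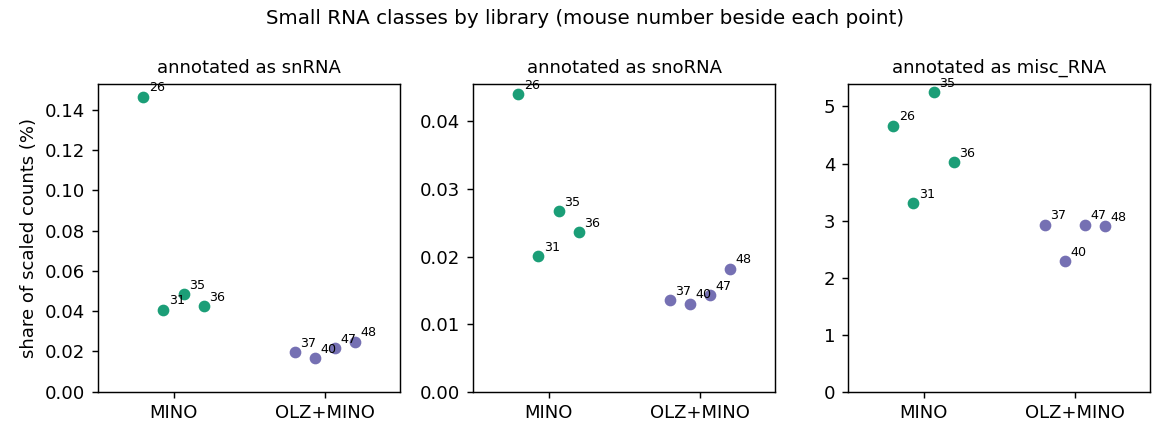
Share of scaled counts (%) taken by genes annotated as snRNA, snoRNA and misc_RNA in each MINO and OLZ+MINO library, with the mouse number beside each point. All OLZ+MINO libraries lie below all MINO libraries in each class, and MINO mouse 26 is highest for snRNA at 0.147%.

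Genes of the feeding circuit had mostly lower values in OLZ+MINO, and none passed the test. Npy, an orexigenic peptide, had 22, 47, 24 and 21 scaled counts in OLZ+MINO and 37.8, 98.5, 129 and 76.6 in MINO. The groups overlapped through OLZ+MINO mouse 40 and MINO mouse 26. The log2 fold change was -1.50 (SE 0.38, limma adjusted p = 0.719), and without MINO mouse 26 it was -1.84 with an adjusted p of 0.264, past the threshold. Without MINO mice 31 and 35 it was -0.97. Agrp, made by the same neurons, had 11, 4, 4 and 4 against 1.99, 19.9, 31.8 and 5.97, with wide overlap (-0.81, SE 0.75). Without MINO mice 31 and 35 its log2 fold change was 0.45, the opposite sign. Pomc had 319, 45, 210 and 24 against 314, 971, 1100.0 and 162. Mice 31 and 35 held the highest Pomc levels, and the groups overlapped (-2.37, SE 0.81). Without those mice the value was -1.27. Cartpt, an anorexigenic peptide, had 530, 219, 419 and 121 against 577, 561, 589.8 and 397 (-0.92, SE 0.37), and -0.52 without OLZ+MINO mouse 48. Ghsr, the ghrelin receptor, had 54, 35, 31 and 28 against 84.5, 110.4, 58.7 and 63.7. All OLZ+MINO libraries were below all MINO libraries, by a log2 fold change of -1.08 (SE 0.27, adjusted p = 0.719). Lepr, the leptin receptor, had 83, 93, 118 and 53 against 112, 136, 119 and 80.6 (-0.40, SE 0.24), and Npy1r, an Npy receptor, had 153, 128, 153 and 139 against 144, 224, 251 and 175 (-0.44, SE 0.17). Without mice 31 and 35 these were -0.19 for Lepr and -0.15 for Npy1r, and Lepr was -0.18 without mouse 48. Socs3, an inhibitor of leptin signalling, gave -0.62 (SE 0.51) and 0.21 without mice 31 and 35. The lateral hypothalamic peptides Hcrt (0.33, SE 0.75), Pmch (-0.20, SE 0.62), Gal (-1.10, SE 0.55) and Qrfp (-0.84, SE 0.67) all overlapped between the groups. Without mice 31 and 35 Hcrt was -0.11, Pmch -0.41 and Qrfp -0.35. Without mouse 48 Hcrt was 1.21, Pmch 0.55 and Gal -0.60. Of 6 orexigenic peptide genes 5 were below 0, with a median of -0.83, which was -0.38 without mice 31 and 35. Of 8 anorexigenic peptide genes 5 were below 0, with a median of -0.18, which was -0.40 without mice 31 and 35. The 3 above 0 were Crh (0.62, SE 0.65), Cck (0.49, SE 0.63) and Bdnf (0.11, SE 0.33). Of 16 feeding hormone receptor and signalling genes 12 were below 0, with a median of -0.29, which was 0.01 without those mice. The median of all genes was 0.00.

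The study text names 4 genes, which it chose on libraries that include those of OLZ+MINO. Beside Npy and Agrp these are Nr5a2, a nuclear receptor, and Nfyb, part of the transcription factor NF-Y. Nr5a2 had 24, 25, 28 and 13 against 34.8, 85.5, 64.6 and 21.9, with overlap (-1.04, SE 0.42, limma adjusted p = 0.732), and -0.34 without MINO mice 31 and 35. Nfyb had 157, 152, 156 and 164 against 235, 176, 185 and 204, with every OLZ+MINO library lower (-0.34, SE 0.12, adjusted p = 0.732).

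Receptors that olanzapine blocks were divided in direction, and none passed the test. Of 9 such genes, 4 were above 0 and 5 below, with a median of -0.14. The 4 above 0, Drd2, Htr2c, Chrm2 and Chrm3, had an unadjusted p under 0.05. Drd2, the dopamine D2 receptor, had 56, 120, 67 and 85 in OLZ+MINO and 52.7, 29.8, 54.7 and 50.7 in MINO. The groups did not overlap, by a margin of little more than 1 scaled count between OLZ+MINO mouse 37 and MINO mouse 35. The log2 fold change was 0.77 (SE 0.27, limma adjusted p = 0.732). Slc6a3, the dopamine transporter, was at 970 and 851 in OLZ+MINO mice 40 and 48, which also had the highest Drd2, and at 20 to 244 in the other 6 libraries. That is a marker of midbrain dopamine neurons as well as of arcuate neurons, and its part in the Drd2 values was not tested. Its own log2 fold change was 1.41 (SE 1.17), which was 0.81 without MINO mice 31 and 35 and 0.62 without mouse 48. Th, which makes the dopamine precursor, was also highest in mice 40 and 48, at 505 and 395 (0.52, SE 0.37, and 0.83 without MINO mice 31 and 35). Htr2c, the serotonin 2C receptor through which feeding is restrained, had 723, 986, 765 and 1134 against 655, 474, 519 and 821 (0.55, SE 0.18). It overlapped through MINO mouse 36, and without mice 31 and 35 it was 0.27. Chrm2 (0.43, SE 0.14), Chrm3 (0.66, SE 0.29) and Hrh2 (0.55, SE 0.24), which are muscarinic and histamine receptors, overlapped between the groups. Without mice 31 and 35 Chrm2 was 0.25 and Chrm3 0.14. The other muscarinic receptors were Chrm1 (-0.18, SE 0.26), Chrm4 (-0.19, SE 0.35) and Chrm5 (-0.29, SE 0.15). Htr2a (-0.14, SE 0.17) and Hrh1 (-0.16, SE 0.19) had 95% intervals from -0.51 to 0.23 and from -0.57 to 0.24. They were -0.38 and 0.051 without mice 31 and 35, and -0.04 and -0.02 without mouse 48. Of 12 serotonin receptor genes 6 were above 0, and of 8 histamine and muscarinic receptor genes 4, with 3 of these at an unadjusted p under 0.05.

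Sterol synthesis genes, which antipsychotics are known to induce in cultured cells, were near 0. Hmgcs1, an early enzyme of the pathway, had 2847, 2671, 1995 and 2528 against 2042, 1909, 1904 and 2594 (0.25, SE 0.13), and 0.11 without MINO mice 31 and 35. Of 20 genes measured, 14 were above 0, none had an unadjusted p under 0.05 and the median was 0.05.

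Markers of tanycytes and of several hypothalamic nuclei had lower values in OLZ+MINO, and none passed the test. Rax, a transcription factor of tanycytes, had 8, 0, 7 and 0 scaled counts in OLZ+MINO and 16.9, 31.8, 53.7 and 11.9 in MINO. No OLZ+MINO library reached the lowest MINO library. The log2 fold change was -3.12 (SE 0.84, limma adjusted p = 0.719), a size that depends on the pseudocount because 2 libraries are at 0. Scn7a, a sodium channel of these cells, had 173, 227, 260 and 139 against 278, 699, 724 and 274. The groups did not overlap, with mice 31 and 35 highest (-1.19, SE 0.33), and without those mice the value was -0.51. Col23a1, a collagen gene, had 99, 56, 129 and 29 against 207, 466, 523 and 107 (-1.99, SE 0.53), and -1.13 without them. Of 15 tanycyte genes measured, 14 were below 0, and 9 of these had an unadjusted p under 0.05, with a median of -0.74. Without mice 31 and 35 the median was -0.40. Of 13 arcuate genes, 11 were below 0 with a median of -1.04, which was -0.79 without them and -0.62 without OLZ+MINO mouse 48. The mean log2 level of those genes overlapped, from 5.13 to 6.29 in OLZ+MINO and from 5.94 to 7.12 in MINO. Paraventricular and supraoptic genes had a median of -1.04 (6 of 7 below 0), which was -0.58 without mice 31 and 35 and -0.28 without mouse 48. Suprachiasmatic genes had a median of -0.32 (6 of 7 below 0), which was -0.51 without mice 31 and 35, further from 0, and -0.25 without mouse 48. Ventromedial genes had a median of -0.90 (5 of 7 below 0), which was -0.38 and -0.09. Growth axis peptide genes had a median of -0.88 (7 of 9 below 0), which was -0.37 and -0.60. The mammillary list was the only one of these nuclei with a median above 0. That median was 0.08 (7 of 9 above 0), but -0.73 without mice 31 and 35 and -0.14 without mouse 48. Lateral hypothalamus genes had a median of -0.20 (3 of 7 above 0), which was -0.35 and -0.18. Tbx3, a transcription factor of the arcuate nucleus, had 55, 44, 51 and 25 against 78.6, 167, 181 and 73.6 without overlap (-1.43, SE 0.34), and -0.84 without mice 31 and 35. Ghrh, the growth hormone releasing peptide, had 23, 4, 27 and 4 against 26.9, 76.6, 67.6 and 12.9 (-1.74, SE 0.71), and -0.79 without them. Tshr, the thyrotropin receptor of the pars tuberalis, had 8, 2, 11 and 4 against 19.9, 47.7, 56.7 and 14.9 (-2.29, SE 0.56), without overlap, and -1.52 without them. Among steroid receptors, Esr1 had 276, 127, 184 and 83 against 272, 394, 419 and 254 (-1.10, SE 0.31), and Pgr did not overlap (-0.53, SE 0.16).

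**Figure D3:**
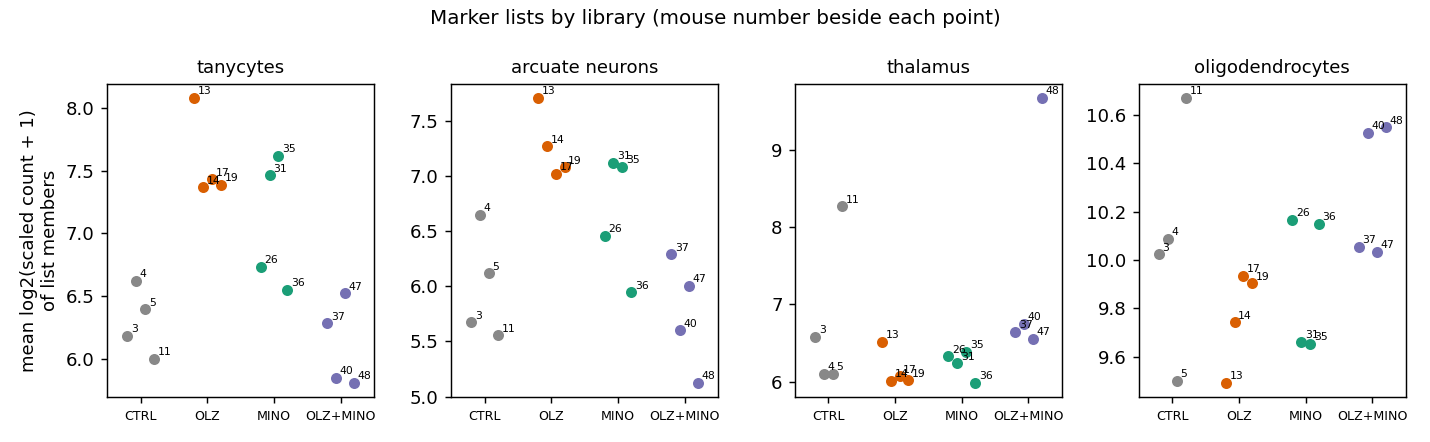
Mean log2(scaled count + 1) of the measured members of 4 marker lists in each of the 16 libraries, with the mouse number beside each point. Tanycyte levels run from 5.81 to 6.52 in OLZ+MINO and from 6.55 to 7.62 in MINO, and OLZ+MINO mouse 48 is highest for thalamus at 9.67.

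Thalamus markers went the other way, and OLZ+MINO mouse 48 carried most of the difference. Shox2, a transcription factor of thalamic neurons, had 14, 20, 19 and 498 scaled counts in OLZ+MINO and 0.995, 2.98, 0.995 and 0 in MINO. The groups did not overlap (4.40, SE 1.01), and without mouse 48 the value was 3.21. Lhx9, from the lateral hypothalamus list, had 52, 43, 21 and 575 against 12.9, 15.9, 7.96 and 15.9 (2.42, SE 0.80), and 1.43 without mouse 48. Tcf7l2 had 139, 192, 127 and 1881 against 107, 130.3, 128 and 89.5 (1.32, SE 0.69), and 0.41 without it. Prkcd, a protein kinase C isoform of thalamic relay neurons, had 47, 99, 82 and 1460 against 60.7, 53.7, 53.7 and 31.8 (1.65, SE 0.84), and 0.57 without it. Calb2, a calcium-binding protein gene, gave 0.48 (SE 0.17) without overlap, and 0.29 without mouse 48. Of 11 thalamus genes 10 were above 0, with a median of 0.77, and 0.29 without mouse 48. The part of dissection in the tanycyte, arcuate and thalamus values was not tested.

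Among the other cell types, all 11 oligodendrocyte genes were above 0, with a median of 0.42 and 6 at an unadjusted p under 0.05. Mobp, a myelin protein gene, had 5206, 7509, 5459 and 7825 against 5499, 3687, 3557 and 5429.6 (0.52, SE 0.18). The groups overlapped, mice 40 and 48 were highest, and without MINO mice 31 and 35 the list median was 0.12 and Mobp 0.23. Mbp gave 0.42 (SE 0.18), and 0.19 without those mice. Microglia genes had a median of -0.11, with 3 of 15 above 0, and of -0.01 without MINO mice 31 and 35. Fcrls, a microglial receptor gene, had 44, 59, 57 and 76 against 80.6, 98.5, 111 and 87.5, without overlap (-0.69, SE 0.19). All 14 interferon response and MHC class I genes measured were below 0, with a median of -0.28 and 1 at an unadjusted p under 0.05. Cytosolic ribosomal protein genes had a median of -0.14, with 3 of 24 above 0. Mitochondrial protein-coding genes had a median of 0.09, nuclear respiratory chain genes of -0.01, circadian clock genes of 0.02, immediate early genes of -0.03 and heat shock genes of -0.08.

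**Figure D4:**
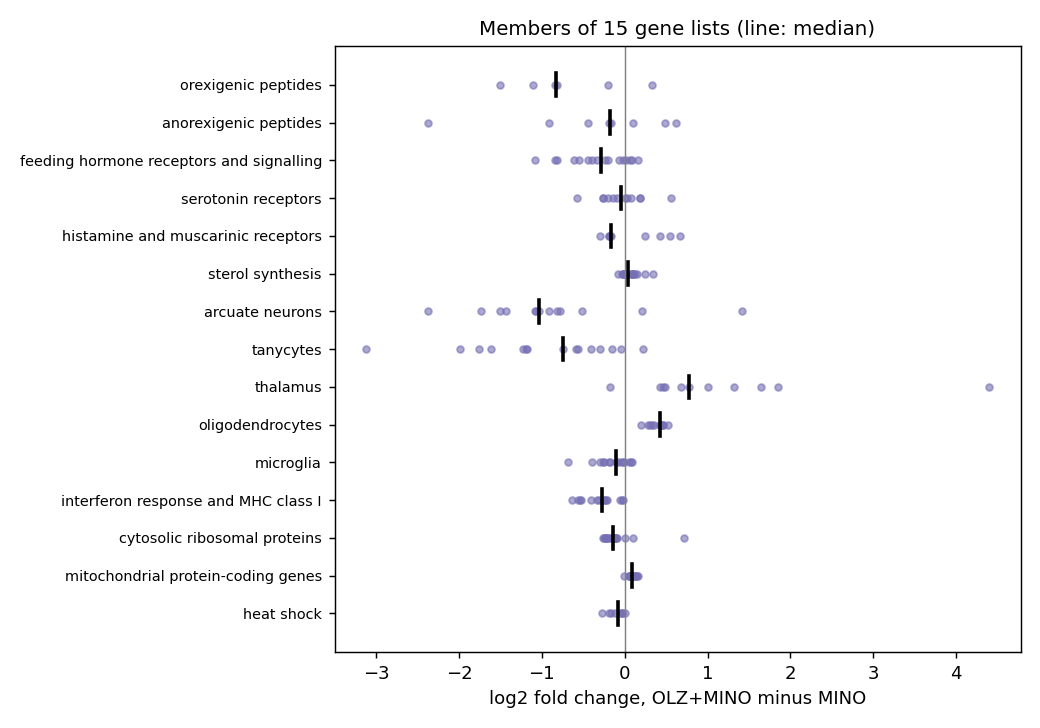
log2 fold change, OLZ+MINO minus MINO, of each measured member of 15 gene lists, with the list median as a vertical line. Arcuate neuron and tanycyte genes have medians of -1.04 and -0.74, thalamus 0.77, oligodendrocytes 0.42 and sterol synthesis 0.05.

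The olanzapine effect without minocycline was set beside these values. OLZ and CTRL share no library with OLZ+MINO and MINO. At an adjusted p of 0.3, limma called 1542 genes between OLZ and CTRL (9.76%), 756 higher (4.79%) and 786 lower (4.98%). None passed in OLZ+MINO against MINO. There, 286 of the 1542 (18.5%) had the same direction as in OLZ against CTRL and 1256 the opposite one, while 39.4% of all genes had the same direction. The 756 genes higher in OLZ had a median log2 fold change of 0.51 in OLZ against CTRL and of -0.21 in OLZ+MINO against MINO. The 786 lower genes had medians of -0.34 and 0.15. Without MINO mice 31 and 35 the share of the 1542 with the same direction was 38.7%. The share over all genes was not computed without those mice, so 39.4% is not its background. The tanycyte level was high in OLZ, from 7.37 to 8.08, and from 6.00 to 6.62 in CTRL, so the marker levels move with these directions. Their part in the result was not tested.

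**Figure D5:**
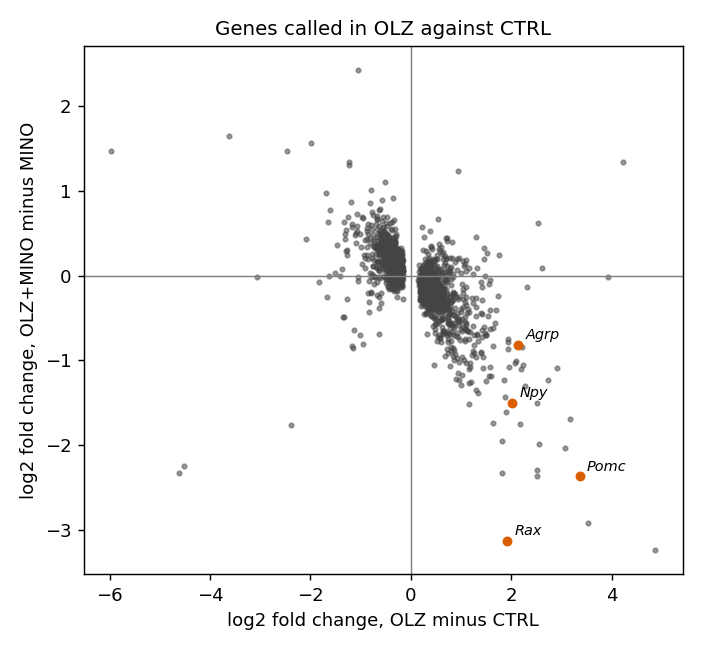
log2 fold change in OLZ+MINO against MINO (vertical) by that in OLZ against CTRL (horizontal) for the 1542 genes called in OLZ against CTRL, with Npy, Agrp, Pomc and Rax in orange. 1256 of the genes lie in the quadrants of opposite direction.

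The difference between the olanzapine effects was tested in a fit of all 16 libraries. At an adjusted p of 0.3, 2239 genes (14.2%) differed, 1127 (7.14%) with a higher effect under minocycline and 1112 (7.04%) with a lower one. At 0.05 there were 39 (0.247%). The count was 38 without MINO mice 31 and 35, and from 892 to 3043 when 1 library was left out. Among MINO libraries, leaving out mouse 31 gave 892 and mouse 35 gave 958. Leaving out CTRL mouse 11 gave 897 and OLZ mouse 13 gave 995. For OLZ+MINO, mouse 40 gave 1266 and mouse 48 gave 1346. Npy differed by -3.52 on the log2 scale (SE 0.59, limma adjusted p = 0.0181) and Agrp by -2.95 (SE 0.88, adjusted p = 0.121). For Npy this was -2.99 without MINO mice 31 and 35, with an adjusted p of 0.22. Pomc differed by -5.73 (SE 1.22) and Scn7a by -2.78 (SE 0.41), while Drd2 differed by 1.29 (SE 0.46) and Htr2c by 1.11 (SE 0.29). Without those mice Scn7a had an adjusted p of 0.0541. Agrp (-1.69, adjusted p = 0.615), Pomc (-4.63, 0.392), Drd2 (1.11, 0.615) and Htr2c (0.82, 0.533) no longer passed in that limma fit. Because Npy, Agrp, Nr5a2 and Nfyb were picked by the study on these libraries, their differences are not independent evidence.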

How the data were processed

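Hypothalamic RNA was sequenced by the authors (TRIzol, TruSeq, Illumina HiSeq) and processed with Bowtie2, RSEM and limma on mm9, per the labels' processing notes and the study's methods; no source used here states versions or the scaling method. The deposited signal values are whole numbers, treated here as scaled counts, in 2 tables that the authors scaled separately. The authors also deposited false discovery rates (on the scale of p-values), a log2 ratio, signed fold changes and score columns of unstated meaning, which were not used. Tables were joined on Ensembl ID (15983 and 16005 genes, 15792 in both), and the MINO table was divided by 1.0054, the median ratio of the CTRL libraries that both tables hold. Because the values are not counts, limma 3.58.1 (R 4.3.3) was run on log2(value + 1) with an intensity trend, 4 libraries a group, and Benjamini-Hochberg adjustment over all genes; the fold changes of low genes are understated by the pseudocount of 1. Single genes were also given the exact two-sided permutation test. The script was tested on simulated data.

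Named genes were the 10 with the smallest p, genes in the study text and members of 54 gene lists; the 15 largest changes past the threshold would have been named too, but no gene passed. Members and lists were chosen with earlier results of these data known, and which list members are described was decided with their values in view. Small RNA classes, positions and sequences came from GENCODE vM21 (GRCm38), which held 15553 of the genes. The labels give each mouse its own number, and no number occurs in more than 1 group. The p-values measure the spread between these mice. Alternatives covered pseudocounts, filters, normalizations, weights, thresholds and left-out libraries. Leaving out MINO mice 31 and 35 together, and leaving out small RNA and rRNA genes, were chosen after seeing the data. The depth in reads is unknown, so no counting intervals are given. A withheld gene is not reported here.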

Additional observations from a re-analysis of the deposited data

Results flagged for a closer look

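Among 57 genes checked in both groups, 16 results had 1 library far from the other 3 of its group. Chance gives this in about 1 in 20 groups of independent values. Many of the genes were chosen with values in view and several results share a library, so the count cannot be set against that rate. MINO mouse 26 was far above the other MINO mice for Gm22988 (586 scaled counts), Snora73a (360.0), Gm24407 (864), Rnu1a1 (276), Rnu2-10 (1332), Rny3 (223) and Slc6a3 (244). OLZ+MINO mouse 48 was far above its group for the thalamus-list genes Shox2 (498), Tcf7l2 (1881) and Prkcd (1460) and for Lhx9 (575). OLZ+MINO mouse 40 was highest for Npy (47) and OLZ+MINO mouse 37 for Agrp (11). MINO mouse 36 was lowest for Cartpt (397), and MINO mouse 31 was highest for Qrfp (42.8) and lowest for Drd2 (29.8).

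The olanzapine effect differed with and without minocycline for 42 of the 57 genes at an adjusted p of 0.3 in the limma fit of 16 libraries, beside 14.2% of all genes. Many of the 57 were chosen for a small p or with values of this contrast in view, so the count is no evidence about them. Without MINO mice 31 and 35, 7 of the 42 still passed: Npy, Lrrc9, Nfyb, Scn7a, Col23a1, Tbx3 and Tshr. Each value is the effect with minocycline minus that without, on the log2 scale. Among feeding peptide genes, differences past the threshold were negative: Npy (-3.52), Agrp (-2.95), Pomc (-5.73), Cartpt (-1.66), Gal (-1.56) and Qrfp (-3.06). Hcrt (1.22), Pmch (0.66), Crh (1.78), Cck (1.25), Bdnf (0.58) and Adcyap1 (0.06) had positive differences that did not pass. The feeding genes Ghsr (-2.25), Lepr (-1.03), Npy1r (-1.12) and Socs3 (-2.25) had negative differences. The transcription factors Nr5a2 (-3.10) and Nfyb (-0.64) did too. So did markers of tanycytes, the arcuate nucleus and the pars tuberalis and the steroid receptor genes: Rax (-5.04), Scn7a (-2.78), Col23a1 (-4.54), Tbx3 (-3.30), Ghrh (-3.37), Tshr (-4.81), Esr1 (-2.24) and Pgr (-1.02). Of the 57, the monoamine, histamine and muscarinic receptor genes Drd2 (1.29), Htr2c (1.11), Hrh2 (1.19), Chrm2 (1.17) and Chrm3 (1.34) passed with positive differences. Outside the 57, the serotonin receptor gene Htr7 and the adrenergic receptor genes Adra1b and Adrb3 also passed with positive differences. Within the 57, positive differences were also found for Shox2 (5.51), Lhx9 (3.48), Tcf7l2 (1.93), Calb2 (0.96), Mbp (0.66), Mobp (0.89) and Ebf1 (1.74). Of the genes with the smallest p, the differences were -0.92 for Gm6863, 0.67 for Coro2a, -0.84 for Txnip, 0.80 for Zfp784, -1.25 for Lrrc9, -0.82 for Gm13826 and 0.70 for Gm26947. The rest were Rnu1a1 (-1.47), Gna11 (-0.38) and Fcrls (-0.86).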

How the results depend on the processing

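The count of genes past an adjusted p of 0.3 between OLZ+MINO and MINO was 0 in the main fit and under every alternative except 2. It ran from 0 to 12 when 1 library was left out, with 12 without MINO mouse 26 and 1, Gm3752, without OLZ+MINO mouse 37. The number at an unadjusted p under 0.05 was 451 without MINO mice 31 and 35, against 1038, and from 622 to 1461 when 1 library was left out. The count of genes whose olanzapine effect differed was 2239, and it was 39 at an adjusted p of 0.05, 38 without MINO mice 31 and 35, and from 892 to 3043 when 1 library was left out. The share of genes called between OLZ and CTRL with the same direction was 18.5%. It was 3.39% for the genes called at 0.05, 38.7% without mice 31 and 35, and from 14.1% to 24.97% when 1 library was left out. For 52 of 57 genes the direction held under every alternative run. Without mice 31 and 35 the log2 fold change was 0.45 for Agrp, 0.21 for Socs3, 0.051 for Hrh1 and -0.11 for Hcrt. When 1 library was left out, Hcrt ran from -0.23 to 1.21, with -0.07 without MINO mouse 35, and Pmch from -0.56 to 0.55. Pmch was 0.047 with array quality weights. The causes were not tested. No paired analysis was possible because no mouse number is shared between the groups. With 4 mice a group, single-gene permutation tests cannot go below 0.0286.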

Other observations

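The mitochondrial ribosomal RNAs, mt-Rnr1 and mt-Rnr2, took similar shares of the scaled counts in both groups that drank minocycline, 10.4% to 11.2% in OLZ+MINO and 9.12% to 11.8% in MINO. The shares were 6.24% to 7.87% in CTRL and 7.08% to 8.07% in OLZ, so the groups with and without minocycline did not overlap. CTRL and MINO values come from tables that were scaled separately, and a share within a library is free of that scale only if a single factor per library was used, which is not stated. Ependymal cilia genes had a median log2 fold change of -0.30 in OLZ+MINO against MINO, with 2 of 12 above 0, and choroid plexus genes a median of 0.21, with 4 of 7 above 0. Neuron markers had a median of 0.17, with 9 of 10 above 0.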
